A study of Mus musculus with 27 samples.

Results

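The genes described here encode 10 transcription regulators of the heart muscle cell: Gata4 and Gata6, Nkx2-5, Mef2a, Mef2c and Mef2d, Tbx5 and Tbx20, Hand2 and Hopx. They were chosen by name and not by a measured value, though with earlier results of these data known. All 10 were found among the 55487 genes of a count table of mouse ventricle and passed the filter on low counts in every comparison. RNA sequencing had been done to follow postnatal expression and the effect of more or less MBNL1, which binds RNA and controls its splicing and stability. The 27 libraries form 7 groups. Controls (Ctl) were taken at postnatal day 1 (P1, 4 libraries), at P7 (3 libraries) and at P60, where 4 control libraries are labelled 7 days and 3 are labelled 14 days after knockout. Libraries with MBNL1 loss of function (KO) are all of P60, 5 at 7 days and 4 at 14 days after knockout, and 4 libraries with MBNL1 gain of function (Tg) are of P7. Not given in the sources used here are the strain, the sex, the deleted part of Mbnl1, the way and the cell type of the knockout and the promoter of the transgene. Nothing in the labels ties each sample to its own animal, and p-values therefore reflect only the spread among these samples, some of which may be technical.

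Most of these regulators bind DNA together and switch on each other and the genes of the contractile apparatus. GATA4 and GATA6 are zinc finger proteins, NKX2-5 is a homeodomain protein and the MEF2 proteins are MADS-box factors that couple calcium signals and histone deacetylases to muscle genes. TBX5 and TBX20 are T-box proteins, of which TBX5 is mainly an activator and TBX20 is also known as a repressor. HAND2 is a basic helix-loop-helix protein of the right ventricle that is also made in other cells of the heart, and HOPX is a small homeodomain protein that does not bind DNA and restrains serum response factor. Several of them, among them GATA4, GATA6, TBX20 and HAND2, are also present in fibroblasts, endocardium or smooth muscle.

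The promoters of 4 of the genes are shown because the comparisons that follow turn on them: Hand2 and Tbx20 moved in opposite directions from P7 to P60, Hopx and Tbx20 did so in the libraries labelled KO, and Mef2a and Hopx were both lower in the Tg libraries. They come from RefSeq on the build GRCm38.p6, which held 7 of the 10 genes. Gata4, Gata6 and Tbx5 were not matched. Each sequence runs from 250 bases before to 50 bases after the annotated start, 5′ to 3′ on the strand of the gene. Capitals mark matches, on either strand, to AGATAA or TGATAA for GATA factors, CAAGTG or TAAGTG for NKX2-5, CTA and TAG with any 4 bases between them for MEF2, AGGTGT for T-box proteins and TATAAA for the TATA box. Hand2 lies at chr8:57320733-57321032 on the plus strand, the second of 2 starts of Hopx at chr5:77095218-77095517, Mef2a at chr7:67372809-67373108 and Tbx20 at chr9:24774254-24774553, the last 3 on the minus strand. The first start of Hopx, not shown, held none of these motifs.
Hand2: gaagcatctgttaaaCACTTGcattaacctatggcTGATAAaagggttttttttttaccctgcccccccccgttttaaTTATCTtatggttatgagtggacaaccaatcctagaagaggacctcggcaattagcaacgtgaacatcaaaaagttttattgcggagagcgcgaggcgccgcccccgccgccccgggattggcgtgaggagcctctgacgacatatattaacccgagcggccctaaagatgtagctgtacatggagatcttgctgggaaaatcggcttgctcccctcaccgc
Hopx: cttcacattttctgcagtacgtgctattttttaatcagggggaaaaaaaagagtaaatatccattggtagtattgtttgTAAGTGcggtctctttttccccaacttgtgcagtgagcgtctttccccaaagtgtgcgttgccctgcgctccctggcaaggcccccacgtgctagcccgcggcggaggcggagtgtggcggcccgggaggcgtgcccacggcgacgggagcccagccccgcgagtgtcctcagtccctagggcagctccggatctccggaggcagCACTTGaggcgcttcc
Mef2a: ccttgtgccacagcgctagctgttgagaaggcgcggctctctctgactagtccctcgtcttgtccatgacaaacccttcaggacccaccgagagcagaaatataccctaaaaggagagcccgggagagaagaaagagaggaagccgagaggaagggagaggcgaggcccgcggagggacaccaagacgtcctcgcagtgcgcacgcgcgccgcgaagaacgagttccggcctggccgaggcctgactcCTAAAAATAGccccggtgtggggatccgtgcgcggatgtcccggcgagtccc
Tbx20: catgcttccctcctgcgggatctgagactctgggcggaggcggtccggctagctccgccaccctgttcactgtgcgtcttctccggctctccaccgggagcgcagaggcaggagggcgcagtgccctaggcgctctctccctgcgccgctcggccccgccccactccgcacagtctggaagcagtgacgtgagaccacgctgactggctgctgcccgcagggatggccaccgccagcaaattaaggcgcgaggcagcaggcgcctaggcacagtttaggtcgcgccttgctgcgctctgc
With the start as base 1 and the base before it as base -1, the Hand2 window held TGATAA from base -215, the reverse complement of AGATAA from base -172 and the reverse complement of CAAGTG from base -235. The Hopx window held TAAGTG from base -171 and the reverse complement of CAAGTG from base 35. CAAGTG is also a form of the E-box CANNTG of helix-loop-helix proteins, which 72.3% of 32851 mouse promoters of this length held and which is not marked. The Mef2a window held the MEF2 match from base -2, across the start itself, a sequence found in 3.69% of promoters. The Tbx20 window held none of the marked motifs. One or other GATA form stood in 18.6% of all promoters, one or other NKX2-5 form in 21.3%, AGGTGT in 13.7% and TATAAA in 13.6%. These matches describe letters and are not binding sites.

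Total counts ran from 21929347 to 25675115 per library, and the members had 418 to 10400 counts in a library. All 15 cardiomyocyte markers examined (such as Myh6, Tnni3 and Atp2a2) were above 0 in every group, which does not tell ventricle from atrium. The summed level of 8 atrial cardiomyocyte markers in controls was 705 to 1018 CPM at P1 and 194 to 640 at P7. At P60 it was 177 to 351 CPM in 7 day and 246 to 334 in 14 day controls. The part of atrial tissue in the members' levels was not tested. Levels are CPM, counts scaled to library size, after trimmed mean of M-values (TMM) scaling. Mbnl1 stood at 2927 to 4079 CPM in the Tg libraries against 96.9 to 104 in their controls. At 14 days it was lower in the libraries labelled KO, at 117 to 139 against 152 to 169 CPM, but at 7 days libraries 2 and 4 held 103 and 116 CPM against 145 to 152 in controls, while libraries 1, 3 and 5 held 219, 168 and 166. The level of the targeted gene thus does not bear out the label in those 3 libraries. They are called by their label throughout, and every direction given for 7 days rests on them too. As the deleted part of Mbnl1 is not given, counts of the whole gene cannot tell whether it was lost there. Esr1, whose ligand-binding domain is part of the commonly used inducible Cre proteins, stood at 234 and 193 CPM in libraries 1 and 5, at 651 to 1905 CPM in the other 3 of 7 days and at 1672 to 1983 CPM at 14 days, against 0.482 to 1.49 CPM in P60 controls. Every library labelled KO thus stood above every P60 control in Esr1. Any effect of what carries it cannot be told apart from loss of MBNL1 in these comparisons.

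**Figure D1:**
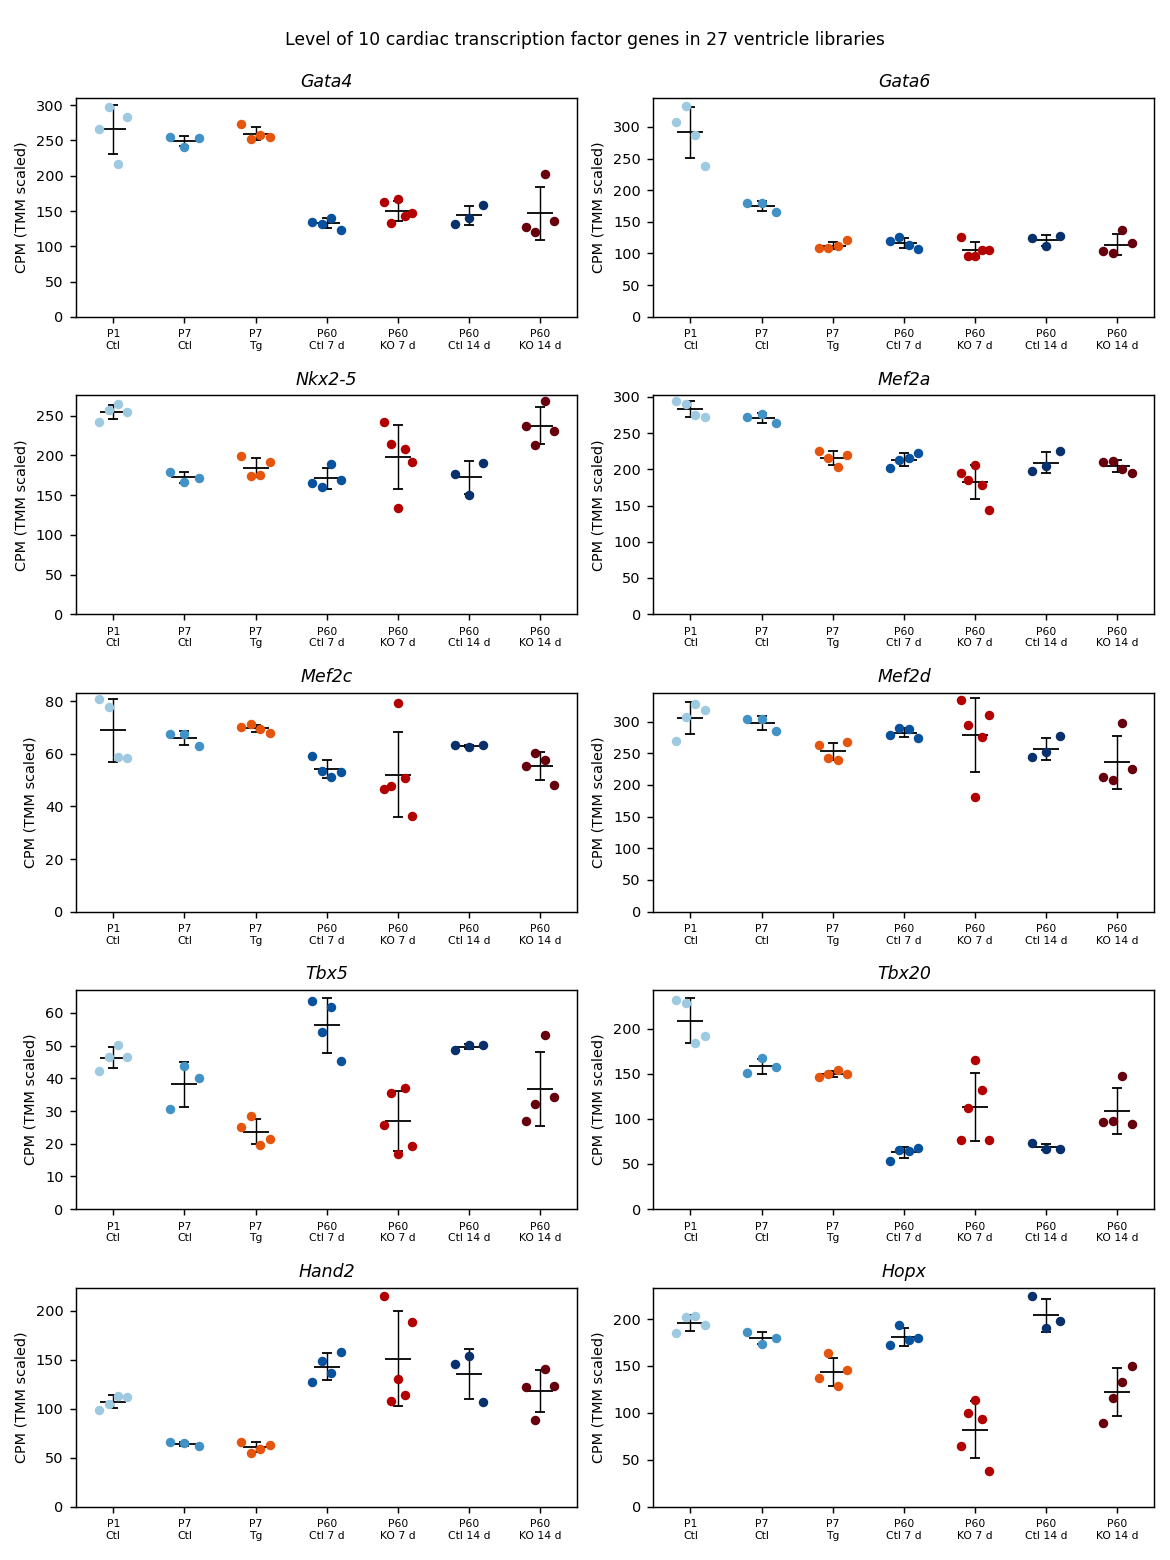
Level of each of the 10 genes in CPM (TMM scaled, axis from 0) in the 27 libraries by group, with each point a library and bars giving the group mean and SD. Gata4 and Tbx20 stand lower in all P60 controls than in all P1 and P7 libraries, Hopx is lower in all 9 libraries labelled KO than in the 7 controls of P60, and Gata6 is lower in all 4 Tg libraries than in the 3 controls of P7.

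Per length of the annotated exons, which run from 1516 bases in Hopx to 15715 in Mef2c, Nkx2-5 and Hopx were the most abundant of the 10 in every control group and Mef2c the least. This length joins all annotated exons of a gene, used here or not, so the order between genes depends on it. In CPM at P1, for example, Tbx5 (mean 46.3) stood below Mef2c (mean 69.0). At P1 the mean level was 148 CPM per kilobase for Nkx2-5, 129 for Hopx, 68.0 for Gata4, 51.0 for Mef2d, 45.5 for Hand2, 44.8 for Gata6, 19.3 for Mef2a, 17.4 for Tbx20, 9.91 for Tbx5 and 4.39 for Mef2c. In that order the libraries of Mef2d, Hand2 and Gata6 overlapped with each other, and Tbx20 overlapped with Mef2a. At P60 (7 day controls) the order was Hopx at 119, Nkx2-5 at 99.5, Hand2 at 60.8, Mef2d at 47.2, Gata4 at 33.9, Gata6 at 17.98, Mef2a at 14.5, Tbx5 at 12.02, Tbx20 at 5.24 and Mef2c at 3.45 CPM per kilobase, and no 2 neighbours in it overlapped between libraries. Hand2 had thus passed Gata4, and Tbx5 had passed Tbx20. In the libraries labelled KO at 7 days Hopx came after Nkx2-5 and Hand2 at 54.0 CPM per kilobase and Tbx20 at 9.40 again stood before Tbx5 at 5.75. There Hopx overlapped with Hand2, Mef2d and Gata4.

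The first postnatal week was examined in controls, P7 against P1. Gata6, Nkx2-5, Tbx20 and Hand2 fell, and no member rose. Differences were tested with edgeR's quasi-likelihood test with Benjamini-Hochberg adjustment over all genes, here and for every adjusted p that follows, with 0.05 as the threshold for a call. The 4 of 10 members called stand beside 23.5% of 16388 genes called either way and 11.2% called lower, and the median change of the 10 was -0.21 on the log2 scale, against -0.01 over all genes. The same 4 did not overlap between the ages, beside 32.7% of genes.

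Hand2 held 98.7, 105, 113 and 112 CPM at P1 and 65.6, 65.0 and 61.7 CPM at P7. All P7 libraries lay below all of P1, with a log2 fold change of -0.75 ± 0.11 (SE, adjusted p = 0.00031). Gata6 held 308, 334, 287 and 238 CPM at P1 and 179, 180 and 166 at P7, a change of -0.74 ± 0.10 (adjusted p = 9.1e-05). Nkx2-5, a marker of the myocyte lineage from its first cells on, held 243, 257, 265 and 254 CPM at P1 and 179, 166 and 171 at P7, so that the groups again stood apart (-0.57 ± 0.09, adjusted p = 0.00027). Tbx20 held 231, 229, 184 and 192 CPM at P1 against 150, 167 and 158 at P7 (-0.40 ± 0.10, adjusted p = 0.0070), and its fall was not called when all 27 libraries shared a single fit (adjusted p = 0.15). Gata4, the other GATA member, changed by -0.09 ± 0.10 and its libraries overlapped.

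The other 5 members did not pass the test, with log2 fold changes from -0.29 ± 0.12 for Tbx5 (adjusted p = 0.11) to -0.04 ± 0.08 for Mef2d. Of 34 tested partner factors, a list of cofactors and other heart regulators chosen with earlier results known, 4 rose and 10 fell. Among them, Hey2, a Notch effector of the compact ventricular wall, fell by 2.20 on the log2 scale and Irx4, a ventricular homeodomain factor, by 0.65. Irx3, a regulator of the conduction system, rose by 0.71 ± 0.20. Of 34 target genes of these regulators 6 rose and 10 fell; Xirp2 rose by 2.63 ± 0.20, while Myh7, the slow myosin heavy chain, fell by 4.48. All 5 endocardial markers were measured, and 4 fell, with a summed level of 192 to 208 CPM at P1 against 86.5 to 98.9 at P7. Of 7 epicardial markers 4 fell and 1 rose, and of 15 fibroblast markers 10 rose and 2 fell. The part of these cell types in the members' changes was not tested. In tissue RNA, fewer cells of a type and less RNA per cell cannot be told apart.

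Between P7 and P60 the controls changed in most of their genes, and 6 of 10 members were called, 2 higher and 4 lower, beside 69.3% of 16388 genes called either way, 33.3% higher and 36.0% lower. The 6 did not overlap between the ages, beside 63.3% of genes. Hand2 rose and Tbx20, Gata4, Gata6 and Mef2a fell. The rise of Tbx5 was not called with either total count scaling. This comparison depends on scaling. The 13 mitochondrially encoded proteins took 24.7 to 27.8% of counts in P60 controls against 14.9 to 15.6% in the P7 controls. The median of all genes was -0.05 on the log2 scale with TMM, -0.65 with total count scaling and -0.41 with mitochondrial genes left out of the totals (3242 called higher, 8889 lower). With total count scaling 2352 genes were called higher and 10713 lower, against 5456 and 5895 with TMM. Differences are given relative to the TMM centre.

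Hand2 held 106 to 158 CPM in the 7 P60 controls, with a median of 146, and 65.6, 65.0 and 61.7 CPM at P7. Every P60 control lay above every P7 control, and the change was 1.11 ± 0.11 (adjusted p = 3.3e-07), or 0.50 with total count scaling. Its level at P60 was also called above that of P1 in this fit (0.37 ± 0.09, adjusted p = 0.0025), with overlapping libraries. That difference turned to -0.30 with total count scaling and to -0.01 when mitochondrial genes were left out of the totals.

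Tbx20 went the other way, with 53.6 to 73.0 CPM (median 66.3) in the P60 controls against 150, 167 and 158 CPM at P7. The groups were far apart, with a 2.42-fold fall (log2 -1.27 ± 0.08, adjusted p = 5.6e-09), and against P1 the fall was 3.20-fold (-1.68 ± 0.08). No other member changed by as much in either of these comparisons. Gata4 held 123 to 158 CPM (median 135) at P60 and 254, 241 and 253 at P7, a change of -0.86 ± 0.08 (adjusted p = 3.6e-07). For Gata4 the fall was called after P7 only, and its change from P1 to P7 had not passed the test; the difference between the intervals was not tested. Gata6 held 108 to 127 CPM (median 120) at P60, below the 166 to 180 CPM of P7 (-0.56 ± 0.09, adjusted p = 3.2e-05), so that it fell in both intervals. Its change from P1 to P60 was -1.30 ± 0.08. Mef2a held 198 to 225 CPM at P60 and 272, 277 and 264 CPM at P7 (-0.36 ± 0.06, adjusted p = 3.6e-05). Tbx20, Gata4, Gata6 and Mef2a stayed called lower with both total count scalings.

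Tbx5, needed for atrial and conduction identity, held 45.2 to 63.5 CPM (median 50.3) at P60 against 30.6, 43.8 and 40.0 CPM at P7. Its rise of 0.46 ± 0.11 (adjusted p = 0.0021) was -0.14 under total count scaling and 0.092 with mitochondrial genes left out of the totals, neither of them called, and was called with RLE size factors (0.48). Nkx2-5 did not pass the test between P7 and P60 (-0.01 ± 0.08), its call being in the first week, but with total count scaling it was called lower (-0.61). Hopx stood at 172 to 224 CPM at P60 and 173 to 187 at P7 (0.09 ± 0.07, adjusted p = 0.24), and was called lower with total count scaling (-0.52) and with mitochondrial genes left out (-0.28). Mef2d (-0.15 ± 0.07, adjusted p = 0.062) and Mef2c (-0.18 ± 0.09, adjusted p = 0.088) missed the threshold, but both were called lower with total count scaling (-0.75 and -0.79) and with mitochondrial genes left out (-0.52 and -0.55). Mef2d was called without P60 control library 7 or with any 1 of the 4 P1 libraries left out of the fit, at -0.16 to -0.17.

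From P1 to P60, 8 members were called, 1 higher and 7 lower, beside 73.7% of genes (35.1% higher, 38.6% lower), and 5 did not overlap, beside 55.9%. Besides the members above these were Nkx2-5 (-0.58 ± 0.07), Mef2a (-0.43 ± 0.05), Mef2c (-0.25 ± 0.08) and Mef2d (-0.19 ± 0.06). The last pair had overlapping libraries, as had Hand2, and Mef2c was not called without P1 library 1 or 2 (adjusted p = 0.075 and 0.063). In the single fit of all 27 libraries Mef2c (adjusted p = 0.095) and Mef2d (adjusted p = 0.14) were not called. Both age comparisons use the same P60 controls. Partner factors mostly fell with them: of 34 tested, 9 rose and 19 fell from P7 to P60. Klf15, a circadian and metabolic regulator, rose by 3.77 ± 0.27 and Hdac4, a deacetylase that binds MEF2 proteins, by 1.23 ± 0.14. Hey2 changed by -1.58 ± 0.14 and Irx4 by -1.02 ± 0.10. Target genes went the other way, with 22 of 34 higher and 5 lower, among them Lmod2 (2.69 ± 0.20), an actin filament elongation factor, and Ppargc1a (2.31 ± 0.36), a driver of mitochondrial biogenesis. Of 15 cardiomyocyte markers, some of which (such as Mb and Atp2a2) are also on the list of target genes, 14 rose and none fell. Among 15 fibroblast markers 11 fell, as did all 10 mitosis genes. The summed cardiomyocyte level was 92234 to 103099 CPM against 54941 to 57541. The part of these cell types in the members' levels was not tested.

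**Figure D2:**
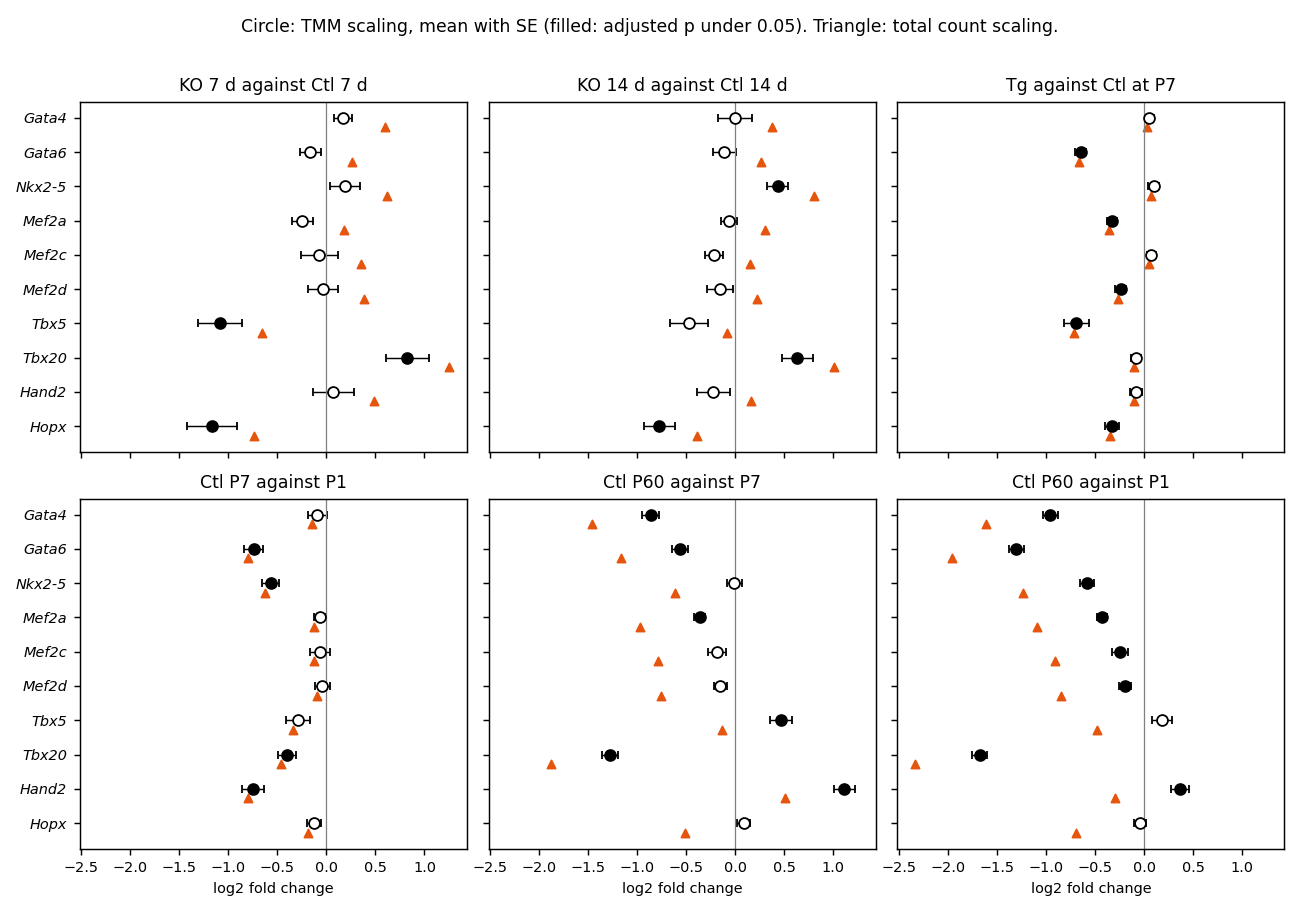
Log2 fold change of each member in 6 comparisons, with circles for TMM scaling (bars are SE, filled where the adjusted p is under 0.05) and triangles for total count scaling. The triangles lie to the right of the circles in both comparisons of libraries labelled KO and to the left in those with P60 controls, so that Hand2 turns from 0.37 to -0.30 between P60 and P1, while in the Tg comparison the scalings differ little.

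Gain of MBNL1 at P7 was examined in the Tg libraries against P7 controls. Gata6, Tbx5, Mef2a, Hopx and Mef2d were lower, and no member was called higher. The 5 of 10 called lower stand beside 15.8% of 15893 genes called lower and 30.7% called either way. The median change of the 10 was -0.16, against 0.00 over all genes, and the scaling moved the median of all genes by less than 0.1.

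Gata6 held 108, 109, 111 and 121 CPM in the Tg libraries and 179, 180 and 166 CPM in the controls. The groups stood apart, by 1.56-fold (log2 -0.65 ± 0.06, adjusted p = 3.9e-06), with a Tg level of 112 ± 5.75 CPM (SD, n = 4). Gata4, the most similar factor in sequence and role, held 273, 252, 258 and 255 CPM in the Tg libraries and 254, 241 and 253 CPM in controls (0.05 ± 0.05, adjusted p = 0.45). It overlapped between the groups. Tbx5 held 25.0, 28.4, 19.7 and 21.5 CPM against 30.6, 43.8 and 40.0 CPM, and all Tg libraries were below all controls (-0.69 ± 0.13, adjusted p = 0.0011). Tbx20, with 146 to 154 CPM against 150 to 167, did not pass the test (-0.08 ± 0.05).

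Mef2a held 225, 216, 203 and 220 CPM in the Tg libraries against 272, 277 and 264 CPM (-0.33 ± 0.05, adjusted p = 0.00033). Mef2d held 263, 242, 239 and 267 CPM against 304, 304 and 286 CPM (-0.24 ± 0.05, adjusted p = 0.0044). Neither overlapped, and both changes were small. Mef2c, at 68.0 to 71.2 CPM against 63.0 to 67.5 CPM, also did not overlap, in the other direction, but was not called (0.07 ± 0.05, adjusted p = 0.25). Counts of libraries that do not overlap, 1 member higher and 5 lower, stand beside 37.3% of all genes. Hopx held 137, 164, 129 and 146 CPM against 187, 173 and 180 CPM (-0.33 ± 0.07, adjusted p = 0.0049). Nkx2-5 (0.10 ± 0.06) and Hand2 (-0.08 ± 0.06) did not pass the test. With all 27 libraries in a single fit, 2 members were called, and Tbx5 (adjusted p = 0.065), Hopx (0.45) and Mef2d (0.38) were not. That fit takes its filter, scaling and spread from all 7 groups, and which of these lost the calls was not tested.

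Of 34 tested partner factors 3 rose and 9 fell in the Tg libraries. Hey2 fell by 1.34 and Irx3 by 1.0 on the log2 scale, and Zfpm2 (FOG2), which binds GATA4 and GATA6, changed by -0.59 ± 0.06. Hey1 rose by 0.40 ± 0.08. Of 34 target genes 16 rose and 9 fell, with Xirp2 at 2.47 ± 0.17, Nppb (the B-type natriuretic peptide) at 2.35 ± 0.10 and Nppa at 1.85 ± 0.38. Of 15 fibroblast markers 9 rose and 1 fell, with a summed level of 8670 to 9986 CPM against 7342 to 8473, and of 15 macrophage markers 12 rose (summed 201 to 263 against 122 to 155 CPM). Cardiomyocyte markers rose in 4 and fell in 5 of 15, with overlapping sums. Their part in the members' changes was not tested.

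Loss of MBNL1 in the adult was examined at 7 days with the 5 libraries labelled KO against 4 controls. Hopx and Tbx5 were lower and Tbx20 was higher, each in all 5 libraries, and the other 7 members did not pass the test. The 3 of 10 called stand beside 50.7% of 15167 genes called either way, 26.4% higher and 24.3% lower. The same 3 did not overlap between the groups, beside 45.4% of genes. The median change of the 10 was -0.05, against 0.03 over all genes. Mitochondrially encoded proteins took 14.3 to 17.5% of counts in the libraries labelled KO against 24.7 to 27.4% in controls. The median of all genes was 0.45 with total count scaling and 0.24 with mitochondrial genes left out of the totals. With total count scaling 7 members were called, among them Gata4 (0.59), Nkx2-5 (0.62), Gata6 (0.26) and Mef2d (0.39) as higher, and 8065 genes were called higher and 1588 lower, against 4001 and 3692 with TMM.

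Hopx held 64.2, 99.4, 114, 93.9 and 38.0 CPM in libraries 1 to 5 labelled KO and 172, 194, 177 and 180 CPM in the controls. Libraries 1 and 5 were the lowest, and none reached a control. The mean was 2.24-fold lower (log2 -1.16 ± 0.25, adjusted p = 0.0033), or -0.83 without libraries 1 and 5 and -0.74 with total count scaling, both still called.

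Tbx5 held 25.8, 35.4, 17.0, 37.0 and 19.2 CPM against 63.5, 54.1, 61.8 and 45.2 CPM in controls. Every library labelled KO lay below every control, and the change was 2.12-fold (-1.08 ± 0.23, adjusted p = 0.0025). Tbx20 held 76.9, 113, 165, 132 and 77.0 CPM against 53.6, 65.2, 64.9 and 67.8 CPM. It was thus higher in all 5, least in libraries 1 and 5 and most in library 3, with a 1.77-fold difference (0.83 ± 0.22, adjusted p = 0.0092) that became 1.11 without libraries 1 and 5. The calls of Tbx5 and Tbx20 held with both total count scalings and with each library left out in turn.

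Hand2 lay on both sides of its controls in this group. It held 216 and 189 CPM in libraries 1 and 5 and 108, 130 and 114 CPM in libraries 2 to 4, against 128 to 158 CPM in controls. The first pair lay above all controls, while libraries 2 and 4 lay below them, so that the mean difference was small and not called (0.07 ± 0.21, adjusted p = 0.80). Without libraries 1 and 5 Hand2 was called lower (-0.30, adjusted p = 0.031), as was Gata6 (-0.25, adjusted p = 0.023). In that setting 3845 of 15115 genes were called lower. These libraries were the highest in Hand2, and library 1 was the highest in Gata6 (127 CPM). Leaving out high values makes a lower call likelier, so these calls do not show a fall. Library 3 stood apart in other members. It held 133 CPM of Nkx2-5 against 191 to 242 CPM in the other 4 and 160 to 190 CPM in controls, 182 CPM of Mef2d against 275 to 334, and 79.5 CPM of Mef2c against 36.3 to 50.7. Without it, the lowest of the group in Nkx2-5 and the highest in Mef2a, Nkx2-5 (0.31) and Mef2a (-0.29) were called, which made 5 members. Gata4 held 133 to 167 CPM against 123 to 140 CPM in controls (0.17 ± 0.10, adjusted p = 0.16) and Mef2a 144 to 207 against 202 to 223 CPM (-0.25 ± 0.11, adjusted p = 0.077).

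**Figure D3:**
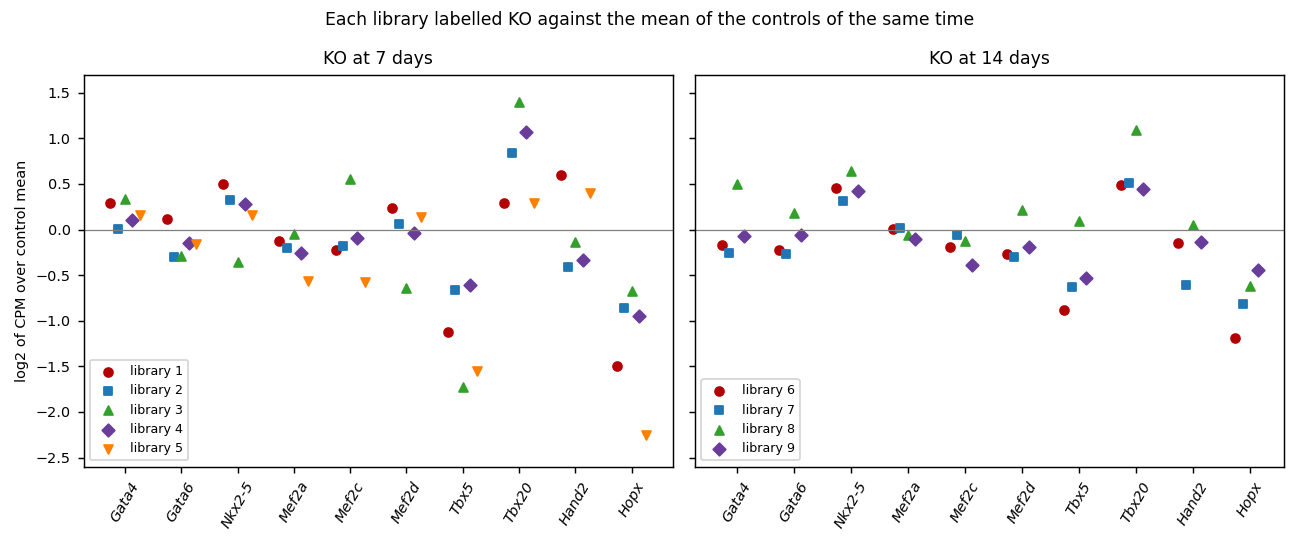
Log2 of each library labelled KO over the mean of its controls for the 10 members, at 7 days (5 libraries) and 14 days (4 libraries), with a symbol for each library. Hopx lies below 0 in all 9 libraries and Tbx20 above 0 in all 9, while at 7 days libraries 1 and 5 lie above 0 for Hand2 and library 3 lies apart for Nkx2-5, Mef2c and Mef2d.

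Of 31 partner factors tested at 7 days 4 rose and 12 fell. Klf15 changed by -1.85 ± 0.16, Hdac4 by -1.47 ± 0.10, the Notch effector Hey1 by -1.26 ± 0.16 and Tbx3, a repressor of working myocardium genes, by -1.10 ± 0.18. Those that rose included Nfatc4 (0.83 ± 0.19), a calcineurin target, Myocd (0.50 ± 0.15) and Mrtfa (0.48 ± 0.08), both coactivators of serum response factor. Target genes were 9 higher and 13 lower of 34. The largest rises were of Nppa (4.16 ± 0.66), Nppb (2.89 ± 0.23), skeletal actin Acta1 (2.80 ± 0.34) and Ankrd1 (2.61 ± 0.19), and the largest falls of Ppargc1a (-2.72 ± 0.50), the calcium pump inhibitor Pln (-2.30 ± 0.50), myoglobin Mb (-2.27 ± 0.14) and the calcium pump Atp2a2 (-1.92 ± 0.21). Of 15 cardiomyocyte markers 12 fell, with a summed level of 27774 to 50865 CPM against 92234 to 98516. Some genes, among them Pln, Mb and Atp2a2, are on both this list and that of target genes, so the counts are not independent. Of 15 fibroblast markers 9 rose and 1 fell, with sums of 6619 to 13831 against 3553 to 4271 CPM, and 14 of 15 macrophage markers rose, with sums of 1408 to 2030 against 532 to 624.9 CPM. Endothelial markers fell in 9 of 15 (1303 to 1949 against 2357 to 2646 CPM), and no marker of these 4 lists was at 0 in a group. The part of these shifts in the members' changes was not tested.

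At 14 days, 4 libraries labelled KO were compared with 3 controls. Tbx20 and Nkx2-5 were higher and Hopx was lower. The 3 of 10 called stand beside 44.2% of 14976 genes, 21.8% higher and 22.4% lower, and the median change of the 10 was -0.13, against 0.01 over all genes (0.39 with total count scaling, with 7288 genes called higher and 1610 lower against 3272 and 3351).

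Hopx held 89.6, 116, 133 and 150 CPM in libraries 6 to 9 against 224, 191 and 197 CPM. The groups did not overlap (1.71-fold lower, -0.77 ± 0.16, adjusted p = 0.0025), but with total count scaling the change of -0.39 was not called (adjusted p = 0.075). Tbx20 held 96.6, 98.0, 147 and 93.8 CPM against 73.0, 66.3 and 67.2 CPM, higher in all 4 and highest in library 8 (1.55-fold, 0.63 ± 0.16, adjusted p = 0.0085). Nkx2-5 held 236, 213, 269 and 231 CPM against 177, 150 and 190 CPM. All 4 lay above all controls (0.43 ± 0.11, adjusted p = 0.0093), but the call was lost without control library 6 (0.34, adjusted p = 0.056).

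Tbx5 held 26.996, 32.2, 53.1 and 34.4 CPM against 48.7, 50.3 and 50.1 CPM. Library 8 lay above the controls and the other 3 below them, so that the fall was not called (-0.47 ± 0.19, adjusted p = 0.073). Without library 8, the highest of its group in both genes, Tbx5 (-0.70, adjusted p = 0.00034) and Mef2d (-0.29) were called lower. Leaving out a high value makes such a call likelier, so these 2 calls do not show a fall. DESeq2 also called Tbx5 with all libraries (adjusted p = 0.047). Library 8 also had the highest Gata4 of its group, 203 CPM against 120 to 136, and the highest Mef2d, 297 CPM against 208 to 225. Mef2c held 48.0 to 60.4 CPM against 62.8 to 63.3 CPM, without overlap, but was not called (-0.22 ± 0.09, adjusted p = 0.077). The 7 day controls held 51.2 to 59.1 CPM of Mef2c, so the control groups of P60 did not overlap with each other either. Members that did not overlap, 2 higher and 2 lower, stand beside 48.4% of all genes. Gata4 (0.00 ± 0.17), Gata6 (-0.11 ± 0.12), Mef2a (-0.06 ± 0.08) and Hand2 (-0.22 ± 0.17) did not pass the test.

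Of 32 partner factors tested at 14 days 6 rose and 9 fell. Zfpm1 (FOG1), a GATA cofactor, changed by 0.79 ± 0.14, and Hdac4 (-1.21 ± 0.15), Klf15 (-1.18 ± 0.12) and Tbx3 (-0.88 ± 0.10) were again lower. Prox1, a homeodomain factor of sarcomere genes, changed by -0.89 ± 0.19. Of the 34 target genes 11 rose and 14 fell, led by Nppa (5.23 ± 0.12) and Acta1 (3.51 ± 0.31), and by Ppargc1a (-2.47 ± 0.31) and Pln (-2.21 ± 0.10). Of 15 cardiomyocyte markers, with Pln again on both lists, 12 fell and 2 rose, with sums of 51779 to 61299 against 96817 to 103099 CPM. Fibroblast markers rose in 11 and macrophage markers in 13 of 15, with sums of 8205 to 9576 against 4459 to 4822 CPM and of 927 to 1289 against 438 to 677 CPM, and their part in the members' changes was not tested either.

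Whether the response differed between the times was tested with all 16 libraries of P60. None of the 10 members was called, beside 0.0% of 15951 genes called by edgeR at an adjusted p under 0.05, although 1662 genes had an unadjusted p under 0.05. DESeq2 called 147 genes and limma-voom none, and neither called a member. The largest differences were for Tbx5 (0.64 ± 0.33, adjusted p = 0.52) and Hopx (0.41 ± 0.34, adjusted p = 0.70), both less reduced at 14 days, and their standard errors show that differences of this size were not detectable here. The call of Tbx5 at 7 days and not at 14 days, and of Nkx2-5 (difference 0.26 ± 0.21, adjusted p = 0.69) at 14 days and not at 7, is thus not a shown difference between the times.

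Ratios of 2 members within a library do not depend on scaling, and 3 were examined after the levels had been seen: Gata4 to Gata6, Tbx20 to Tbx5 and Mef2d to Mef2a, each in 6 comparisons with a two-sided exact permutation test adjusted over the 18. They compare counts, so only changes of a ratio can be read. The count of Tbx20 over that of Tbx5 was 3.67 to 5.47 at P1, 3.81 to 4.91 in P7 controls and 0.843 to 1.499 in all 7 P60 controls. In the libraries labelled KO it was 2.98, 3.18, 9.72, 3.58 and 4.02 at 7 days and 3.58, 3.05, 2.77 and 2.73 at 14 days. All 9 lay above every P60 control. The ratio was 3.75-fold that of controls at 7 days (exact permutation p = 0.0159, adjusted p = 0.0429) and 2.18-fold at 14 days (exact permutation p = 0.0571, adjusted p = 0.0791), and 4 libraries against 3 cannot give a smaller p. In the Tg libraries it was 5.28 to 7.83 against 3.81 to 4.91 in the P7 controls, without overlap (exact permutation p = 0.0571, the smallest possible, adjusted p = 0.0791).

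The ratio of Gata4 to Gata6 was 0.755 to 1.19 at P1, 1.34 to 1.53 in P7 controls, 2.12 to 2.52 in Tg libraries and 1.04 to 1.26 in P60 controls. Among the control ages its values were highest at P7, and it was lower again at P60 (log2 difference -0.30, exact permutation p = 0.0167, adjusted p = 0.0429). The rise from P1 to P7 (log2 difference 0.65) and the higher values in the Tg libraries (log2 difference 0.70) did not overlap. Neither passed after adjustment (exact permutation p = 0.0571, the smallest possible, adjusted p = 0.0791 for both). At 7 days the libraries labelled KO held 1.28 to 1.74 against 1.04 to 1.24 (log2 difference 0.34, exact permutation p = 0.0159, adjusted p = 0.0429), and at 14 days 1.18 to 1.48 against 1.07 to 1.26, with overlap.

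Among the MEF2 genes, Mef2d made up 68.2 to 74.1% of their summed level per length as group means, Mef2a 20.3 to 25.9% and Mef2c 5.29 to 7.24%. These shares depend on the joined length of all annotated exons, 5985 bases in Mef2d, 14681 in Mef2a and 15715 in Mef2c. In CPM, Mef2a and Mef2d were closer, with means of 271 and 298 in P7 controls. The count of Mef2d over Mef2a rose from 1.08 to 1.12 in P7 controls to 1.23 to 1.38 in the P60 controls (exact permutation p = 0.0167, adjusted p = 0.0429). Libraries labelled KO at 7 days spread from 0.879 in library 3 to 2.15 in library 5 around their controls (1.23 to 1.38). The mean log2 difference of 0.19 was not significant (exact permutation p = 0.46). With each library left out in turn it ran from 0.063 to 0.39, the last without library 3, which had the lowest ratio. The exact permutation p of 0.0286 without library 3 was not adjusted and is the smallest that these group sizes allow. No difference is thus shown.

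**Figure D4:**
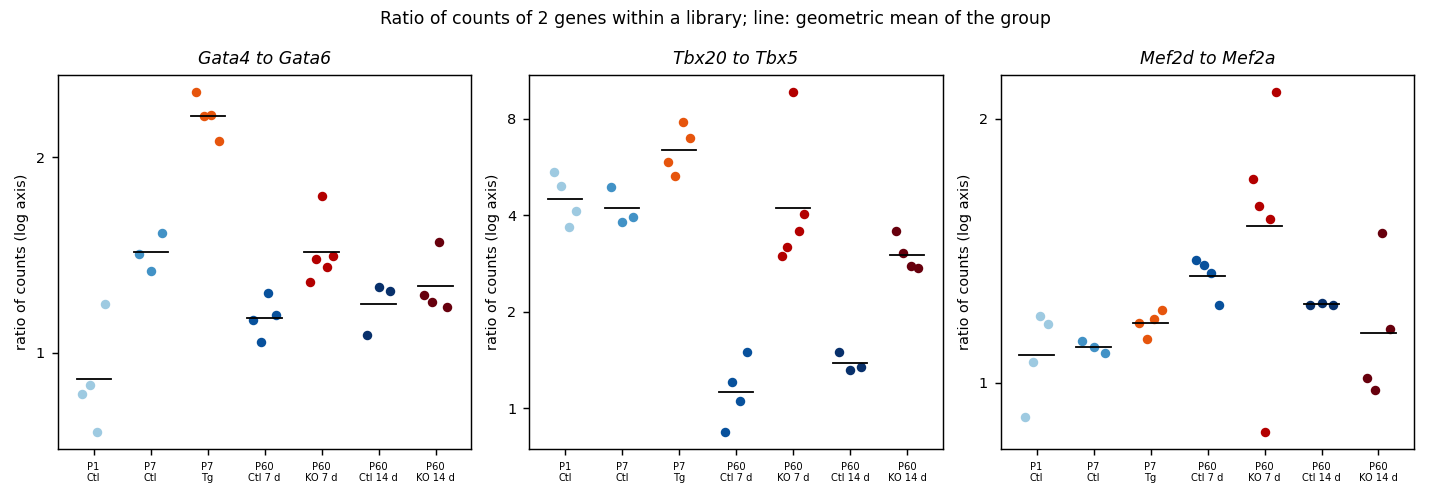
Ratio of the counts of 2 members within each library by group, on log axes, with points for libraries and lines for geometric means. The ratio of Tbx20 to Tbx5 lies at 0.843 to 1.499 in the P60 controls and at 2.73 to 9.72 in the 9 libraries labelled KO, and the ratio of Gata4 to Gata6 is highest in the Tg libraries.

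Genes whose level followed each member most closely were found by Pearson's r of log2 CPM over the 27 libraries, among 9064 genes with a mean of at least 10 CPM. These libraries share ages and genotypes, so r describes the groups as much as single libraries. For Hopx the closest included Cabcoco1 (0.965) and the potassium channel Kcnn2 (0.944). For Gata4 they were Afap1 (0.961), Rgl1 (0.953) and Cxxc5 (0.951), for Gata6 Hey2 (0.954), Phactr2 (0.940) and Arhgap31 (0.938), and for Tbx20 Sulf2 (0.950), Nav1 (0.947) and Myl9 (0.941). Mef2a was closest to Rsbn1l (0.920), Tmem47 (0.917) and Ezr (0.914), Hand2 to Mars (0.917), the metallothionein Mt1 (0.916) and Oplah (0.910), and Mef2d to Mllt6 (0.900), Bcl9l (0.845) and Fbrs (0.838). Tbx5 was closest to Hdac11 (0.886), Calcoco1 (0.879) and Ccdc85c (0.867), Nkx2-5 to Zfpm1 (0.817), Mark3 (0.783) and Igfbp5 (0.780), and Mef2c to Gpatch11 (0.800), Rcbtb2 (0.795) and Nvl (0.789). Among the members themselves Gata4 and Tbx20 were most alike (0.828), followed by Gata6 and Mef2a (0.817). Hand2 had no close member (at most 0.252, with Tbx5) and was least like Gata4 (-0.665).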

How the data were processed

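RNA of mouse ventricle was sequenced at BGI on its DNBseq platform, per the labels' protocols. The authors deposited raw counts, a whole number for every gene in each library. Per the submitters' processing notes, STAR, featureCounts, DESeq2, Salmon and GRCm38 (mm10) were used, with no role or version stated. Not given in the sources used here are the annotation release and the strand setting. Symbols came from GENCODE M21 for 55141 of 55487 genes.

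Counts were tested with edgeR 4.0.16 (filterByExpr, TMM, quasi-likelihood F test) in R 4.3.3, with Benjamini-Hochberg adjustment over all genes tested, and the procedure was tested on simulated data. SE was calculated back from the log2 fold change and F. Each KO group was fitted with the controls of its time, Tg with P7 controls, the difference of responses over all P60 libraries, and ages over the 14 controls with both P60 groups averaged. Alternatives were DESeq2 1.42.0, limma-voom (limma 3.58.1), other scalings, no filter, a single fit, a replicate block and left-out libraries. The 10 members, the 12 gene lists (179 entries), the rules and the alternatives were chosen with earlier results of these data known, and the ratios after the values were seen. Named list genes are the up to 4 largest rises and falls (3 for cell markers) among called genes with a mean of at least 5 CPM and groups that do not overlap. Some genes that this rule or the likeness ranking would name are not reported here. The depth, 21929347 to 25675115 counts per library, gave each member at least 418 counts per library. The part of counting error in the spread was not tested.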

Additional observations from a re-analysis of the deposited data

Results flagged for a closer look

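In the 14 day group labelled KO, library 8 held 147 CPM of Tbx20 against 93.8 to 98.0 CPM in the other 3 libraries, and its gap to the nearest of them was 0.92 of the range of the group, above the limit for 4 samples. This was the only outlying library among 50 sets of a member and a group of 4 or 5 libraries, where chance alone flags about 1 in 20. Without that library Tbx20 remained higher than in controls (log2 fold change 0.45).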

How the results depend on the processing

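Of the 70 member results, limma-voom kept all 70 on their side of the threshold and in their direction, RLE size factors 69, DESeq2 68, no low-count filter 67, a single fit of 27 libraries 62, total count scaling without mitochondrial genes 53 and total count scaling 49. Leaving out each library kept 782 of 810. At 7 days 7 members were called with total count scaling, 5 without mitochondrial genes in the totals, 5 without KO libraries 1 and 5, and 3 to 5 with each library left out. At 14 days 2 to 5 were called with each library left out, and in the Tg comparison 2 in the single fit. The cause of these changes was not tested, except that a scaling shifts all genes together.

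Signs turned as follows, with the values of total count scaling and then without mitochondrial genes. At 7 days these were Gata6 0.26 and 0.053, Mef2c 0.36 and 0.14, Mef2d 0.39 and 0.18, and Mef2a 0.18 with the former. At 14 days they were Gata4 0.37 and 0.20, Gata6 0.26 and 0.088, Mef2a 0.31 and 0.14, Mef2d 0.22 and 0.045, and with the former Mef2c 0.15 and Hand2 0.16. From P7 to P60 they were Hopx -0.52 and -0.28 and, with the former, Tbx5 -0.14, and from P1 to P60 Tbx5 -0.48 and -0.19 and Hand2 -0.30 and -0.0051. Without KO libraries 1 and 5, Mef2c at 7 days was 0.12 and Hand2 -0.30, and the differences between the times were 0.066 for Mef2d and 0.11 for Hand2. Gata4 at 14 days was 0.015 with no filter and 0.0078 in the single fit, and Nkx2-5 from P7 to P60 0.0031 with RLE and 0.0032 with DESeq2. With each library left out, values ran at 7 days from -0.27 to 0.045 for Mef2c, -0.10 to 0.091 for Mef2d and -0.089 to 0.17 for Hand2, and at 14 days from -0.20 to 0.089 for Gata4. The differences between the times ran from -0.028 to 0.15 for Gata6, -0.23 to 0.075 for Mef2c and -0.35 to 0.0049 for Tbx20. Mef2c from P1 to P7 ran from -0.14 to 0.015, Nkx2-5 from P7 to P60 from -0.047 to 0.038, and the log2 ratio of Mef2d to Mef2a from P1 to P7 from -0.049 without P1 library 1 to 0.080.

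Deviations of same-numbered libraries had correlations from -0.56 to 0.28. The samples were not treated as paired in the main fits, but so few pairs cannot exclude a pairing. With replicate number as a block, 5 members were called at 14 days (2 libraries per group), where Tbx5 (-0.79), Mef2d (-0.35) and Hand2 (-0.32) gained a call and Nkx2-5 (0.39, adjusted p = 0.053) lost it. Mef2d from P1 to P60 also lost its call (-0.11, adjusted p = 0.23) and Mef2c from P7 to P60 gained it (-0.24). This setting left out libraries whose number had no partner. The age comparisons thus lacked the 14 day controls (11 libraries), and the 7 day comparison lacked KO library 5 (8 libraries). Effects of the block and of the left-out libraries cannot be told apart. In all, 61 of 70 results kept direction and call, and Mef2c at 7 days turned to 0.0073, Hand2 at 7 days to -0.077 and the difference between the times for Gata6 to -0.060.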

Other observations

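Several members share exonic bases with an antisense gene, and with no strand setting given, reads of a gene and its antisense partner cannot be told apart there. Hand2os1, an antisense transcript of the Hand2 locus known to affect Hand2 levels in the embryo, shares 461 exonic bases with Hand2. It held 36.0, 39.8, 42.5 and 39.4 CPM in the libraries labelled KO at 14 days against 58.8, 60.3 and 52.7 CPM in controls (log2 fold change -0.57 ± 0.09, edgeR adjusted p = 0.00065), where Hand2 did not pass the test. In the Tg libraries it held 38.4, 39.3, 36.2 and 37.5 CPM against 48.7, 53.1 and 51.7 CPM (-0.44 ± 0.05, edgeR adjusted p = 3.2e-05), again with no call for Hand2. In controls it was called in the direction of Hand2 at P7 against P1 (-0.30 ± 0.10, edgeR adjusted p = 0.045). The same held at P60 against P7 (0.22 ± 0.09, edgeR adjusted p = 0.041), with overlapping libraries. At P60 against P1, where Hand2 was called higher (0.37 ± 0.09), Hand2os1 was not called (-0.07 ± 0.08, edgeR adjusted p = 0.44). At 7 days after knockout it was not called (-0.44 ± 0.17, edgeR adjusted p = 0.052), with library 3 at 66.0 CPM against 37.4 to 50.9 CPM in the other 4.

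Other antisense partners changed. Lysmd4, which shares 302 bases with Mef2a, held 9.69 to 13.5 CPM in the libraries labelled KO at 7 days against 17.4 to 19.4 CPM in controls (-0.70 ± 0.12, edgeR adjusted p = 0.00077), and changed by -0.69 ± 0.14 at 14 days. 1010001N08Rik, which shares 93 bases with Gata6, was lower in the Tg libraries (4.88 to 5.70 against 7.11 to 9.15 CPM, -0.59 ± 0.11), at P7 against P1 (-0.87 ± 0.15) and at P60 against P1 (-0.81 ± 0.12), where Gata6 also fell. From P7 to P60, where Gata6 fell too, it did not pass the test (0.07 ± 0.14, edgeR adjusted p = 0.68).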
